A study of Oryza sativa Indica Group with 6 samples.

Results

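The 100 most abundant transcripts of young rice panicles were examined in the wild type and in the *ssh1* mutant. They were chosen by their measured abundance alone, as the 100 genes with the highest mean FPKM (fragments scaled by the length of the gene and by the size of the library) over 6 samples, out of 55982 locus IDs that occur once in the deposited lists. Gene expression had been measured by RNA-seq in panicles of 0 to 4 cm, with 3 biological replicates per genotype, each a pool of 5 plants. The wild type is YIL100, a shattering introgression line from a cross of the wild rice *Oryza rufipogon* (accession YJCWR) with the *indica* variety Teqing, which carries *SH4*/*SHA1* of the donor and *qSH1* of Teqing. The *ssh1* mutant, SSH1-/- in the labels, came from an M2 generation after EMS treatment of YIL100, carries a C-to-A change in the ninth intron of *SUPERNUMERARY BRACT* (*SNB*), and otherwise shares the YIL100 background. It is a single mutant line, so that other EMS changes in the line and the change in *SNB* cannot be told apart here.

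A transcriptome is very uneven. In growing plant tissue a small set of genes supplies a large part of the messenger RNA, and such sets are commonly rich in parts of the translation machinery, histones, cytoskeletal proteins, chaperones, and small secreted or stress-related proteins. Because FPKM divides the fragments of a gene by its length, a short gene can stand high on few fragments, and because each value is relative to the library, a rise of a very abundant transcript lowers the values of all others. A young panicle holds inflorescence and spikelet meristems together with differentiating floral organs and stem tissue. In such bulk samples, fewer cells of a type and less RNA per cell cannot be told apart.

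The locus IDs are those of the MSU7 annotation on the Nipponbare genome (IRGSP-1.0), and their first number is the chromosome. The files do not pair them with gene names, and the RefSeq gene table used here (39387 genes) matched 0 of the 100. The functions of the members are therefore not given, and classes of genes by function, including markers of green or seed tissue, were not made. As a check of genotype and tissue, *SNB* (LOC_Os07g13170, chromosome 7) had 18.6 ± 2.07 FPKM in the wild type and 8.09 ± 0.717 FPKM in *ssh1* (SD, n = 3 each), and *OsMADS15* (LOC_Os07g01820), a MADS-box gene of floral meristems, had 244 ± 9.73 and 228 ± 30.3 FPKM (SD, n = 3 each). *OsMADS15* was thus well expressed in both genotypes, at rank 366 of all genes.

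The members covered a range of more than 2 orders of magnitude, with very few genes at the top. The mean FPKM of the first gene was 226 times that of the gene at rank 100, and that of the third was 48.0 times as high. Of the 100 members, 5 had a mean above 10000 FPKM and 42 a mean above 1000 FPKM. The median over the members was 834 FPKM, against 11.7 FPKM over the 18537 genes that reached a mean of 1 FPKM, which are the genes tested below. At the edge of the list the values hardly differed, with 570 FPKM for LOC_Os01g57968 (rank 99) and 567 FPKM for LOC_Os07g42950 (rank 100) inside it, and 566 FPKM for LOC_Os06g48750 and 565 FPKM for LOC_Os05g34700, the next 2 genes, outside it.

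**Figure D1:**
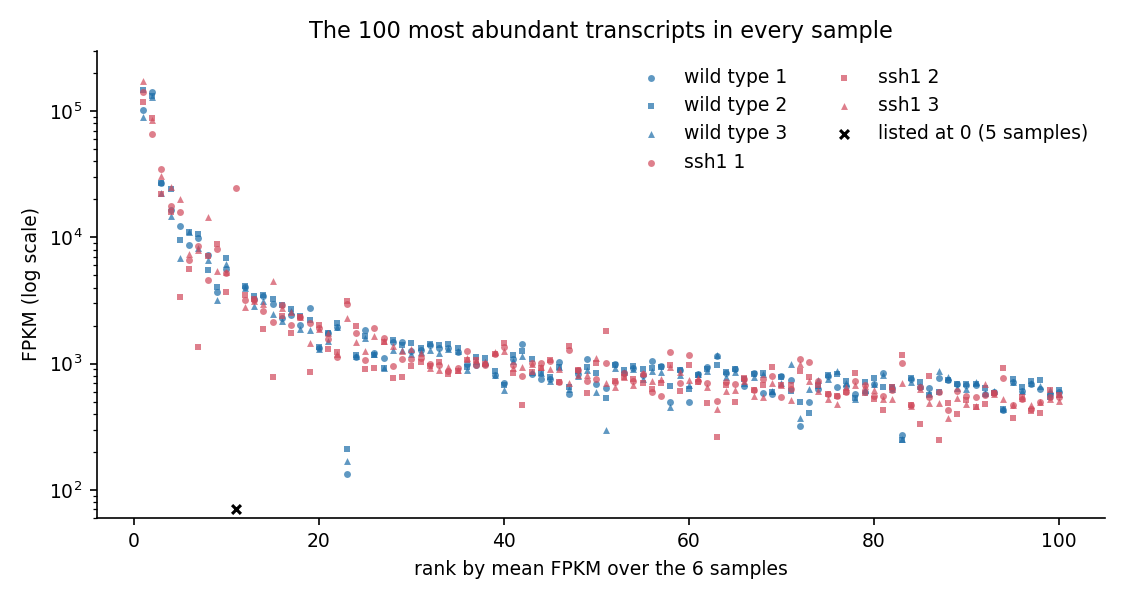
FPKM (log scale) of each of the 100 members in each of the 6 samples, against the rank by mean FPKM; each point is 1 replicate, blue for the wild type and red for ssh1. The values fall steeply over the first 10 ranks and then level off, and the cross marks the gene at rank 11, LOC_Os09g00999, which was listed at 0 in 5 samples and at 24668 FPKM in ssh1 replicate 1.

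Together the 100 members held nearly as much of the FPKM sum as all other genes. Their share was 46.3%, 48.2%, and 43.8% in wild-type replicates 1, 2, and 3, and 44.8%, 43.0%, and 48.5% in *ssh1* replicates 1, 2, and 3. The replicates of the genotypes overlapped, and the mean share of 46.1% ± 2.20 in the wild type and 45.4% ± 2.83 in *ssh1* (SD, n = 3 each) differed by -0.69 percentage points (exact permutation test, two-sided, p = 0.8, where 3 against 3 cannot go below 0.1). Without wild-type replicate 2 the difference was 0.36, and without *ssh1* replicate 2 it was 0.53, so that its sign rested on single replicates.

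This large share came from the top of the list. The first 10 genes held 33.8% to 38.4% of the sum in the wild type and 32.5% to 39.1% in *ssh1*, whereas the 90 genes at ranks 11 to 100 held 9.81% to 10.1% and 9.40% to 12.2%. Over the wild-type replicates the share of these 90 genes was 9.98% ± 0.145 (SD, n = 3), and over the *ssh1* replicates it was 10.6% ± 1.49 (SD, n = 3), so that the spread was wider in *ssh1*. The 12.2% belonged to *ssh1* replicate 1, in which LOC_Os09g00999 alone held 2.61% of the sum.

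When the genes were ordered separately in each sample, between 122 genes (*ssh1* replicate 3) and 228 genes (*ssh1* replicate 2) made up 50% of the FPKM sum. The wild-type replicates, at 162, 126, and 212 genes, lay within that range. For 75% of the sum 1789 to 2182 genes were needed in the wild type and 1826 to 2138 in *ssh1*. The samples therefore differed in how much the very top genes held and were close further down.

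**Figure D2:**
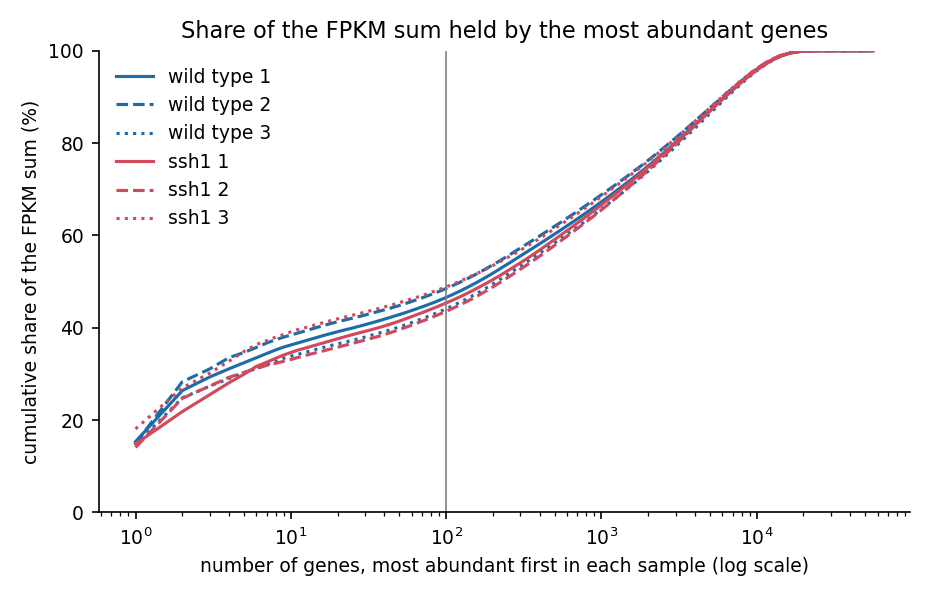
Cumulative share of the FPKM sum (%) against the number of genes, counted from the most abundant gene of each sample (log scale), with 1 line per sample and a vertical line at 100 genes. At 100 genes the lines lie between 43.6% and 48.8%, and those of the genotypes cross.

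The same genes were abundant in most samples. Of the 100 members, 79 to 90 were among the 100 highest genes of each single sample, and 60 were so in all 6. In all 6 samples 90 members stood within the first 200 genes. These counts follow in part from choosing the members by their mean over the same samples, so they are a description only. By the mean of the wild type alone, 89 of the members were in the first 100, by that of *ssh1* alone 84, and by both 73. There were 16 members that were in the first 100 of the wild type only and 11 that were in the first 100 of *ssh1* only. A gene that is high in 1 genotype can enter the list through it, so that the members' differences between the genotypes are not free of the choice of the members. The 10 members outside the first 200 in some sample included the 2 largest rises described below.

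LOC_Os06g47230, on chromosome 6, had the highest mean of all genes. Its values were 102104, 146490, and 89944 FPKM in wild-type replicates 1 to 3 and 140122, 117202, and 173082 FPKM in *ssh1*, so that the genotypes overlapped. This single gene held 10.2% to 15.0% of the FPKM sum in the wild type and 14.1% to 18.1% in *ssh1*. The difference was within the spread (limma, log2 fold change 0.36 with a standard error, SE, of 0.42, and an adjusted p of 0.506).

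LOC_Os02g27769, on chromosome 2, was the second. It had 141738, 130416, and 129223 FPKM in the wild type and 66275, 88506, and 85099 FPKM in *ssh1*, and every *ssh1* replicate was below every wild-type replicate. Its share of the FPKM sum was 13.3% to 15.3% in the wild type and 7.01% to 10.6% in *ssh1*. The wild-type mean was 133792 ± 6907 FPKM and the *ssh1* mean 79960 ± 11974 FPKM (SD, n = 3 each), and in limma the log2 fold change of -0.75 ± 0.35 (SE) had an adjusted p of 0.125. This p depended on the settings. It was 0.00813 with robust estimation of the variance, 0.0103 with a minimum mean of 5 FPKM, and 0.0247 after rescaling to a common sum. In the other fits it was above 0.05. It was 0.0515 after rescaling to the sum of non-members, 0.0979 with a pseudocount of 0.1, and 0.136 with median-of-ratios scaling. With the replicate block it was 0.252, after quantile normalization 0.347, and with 1 replicate left out 0.140 to 0.424. The change stayed under 2-fold in each of these fits. It was the most abundant gene in 2 wild-type replicates and in 0 of the *ssh1* replicates. Its values, like those of LOC_Os04g32710, were small whole multiples of a large step, which is described with the depth of the members.

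The genes at ranks 3 to 5 had overlapping genotypes. LOC_Os06g13680 had 27102, 27141, and 22299 FPKM in the wild type and 34412, 22079, and 30363 FPKM in *ssh1*. LOC_Os05g28750 had 16500, 23972, and 14650 FPKM in the wild type and 17546, 15932, and 24960 FPKM in *ssh1*. In both genes the differences between replicates of a genotype were larger than that between the genotypes. LOC_Os04g32710 was far more variable, with 12249, 9589, and 6801 FPKM in the wild type and 15997, 3340, and 20114 FPKM in *ssh1*.

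LOC_Os06g08320, at rank 6, was lower in every *ssh1* replicate. Its values were 8644, 11071, and 11094 FPKM in the wild type and 6623, 5598, and 7318 FPKM in *ssh1*, with means of 10269 ± 1408 and 6513 ± 865 FPKM (SD, n = 3 each). Limma gave -0.66 ± 0.18 (SE) on the log2 scale with an adjusted p of 0.0284, a change smaller than 2-fold. This p was 0.0526 with quantile normalization, 0.0130 to 0.0459 with the other scalings, and 0.0799 with the replicate block. With 1 replicate left out it was 0.0359 to 0.105. LOC_Os05g02070, at rank 10, had 5635, 6857, and 6148 FPKM in the wild type and 5173, 3705, and 5356 FPKM in *ssh1*, again without overlap but with an adjusted p of 0.124 in limma.

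LOC_Os02g30600, at rank 9 and on chromosome 2, differed in the other direction. It had 3664, 4045, and 3169 FPKM in the wild type and 8135, 8874, and 5452 FPKM in *ssh1*, and all *ssh1* replicates were above all wild-type replicates. The *ssh1* mean was 2.06 times the wild-type mean. Limma gave 1.02 ± 0.22 (SE) on the log2 scale with an adjusted p of 0.0119, short of the 0.001 that the study required of its Cuffdiff results. The log2 fold change stayed between 0.88 and 1.24 whichever replicate was omitted.

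LOC_Os04g02670 and LOC_Os09g01000, at ranks 7 and 8, each had 1 *ssh1* replicate apart from the others. LOC_Os04g02670 had 9789, 10555, and 8277 FPKM in the wild type and 8506, 1363, and 7996 FPKM in *ssh1*, so that replicate 2 alone was low. LOC_Os09g01000 had 7214, 5555, and 6600 FPKM in the wild type and 4578, 7100, and 14343 FPKM in *ssh1*, so that replicate 3 alone was high. For neither gene did the genotypes separate, and the adjusted p in limma was 0.257 and 0.614.

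**Figure D3:**
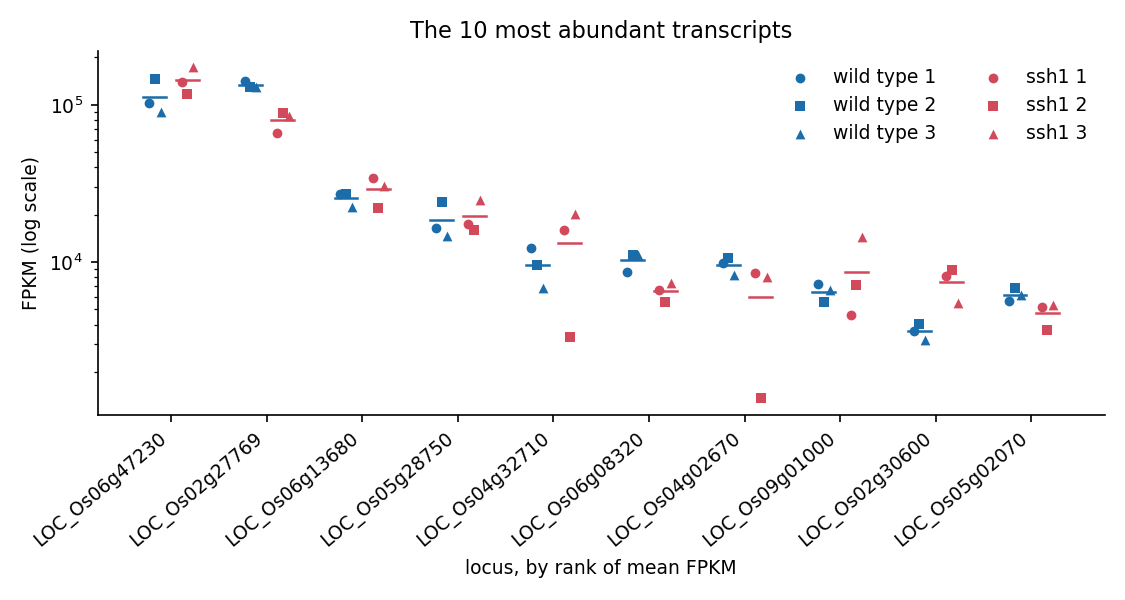
FPKM (log scale) of the 10 members with the highest mean, each point 1 replicate (circle, square, and triangle for replicates 1, 2, and 3) and each bar the mean of the 3 replicates of a genotype. LOC_Os02g27769, LOC_Os06g08320, and LOC_Os05g02070 lie lower in all ssh1 replicates, LOC_Os02g30600 lies higher in all of them, and the other 6 genes overlap.

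Among the 45 ratios between 2 of these 10 genes, that of LOC_Os06g47230 to LOC_Os05g28750 varied least over the samples. It was 6.19, 6.11, and 6.14 in the wild type, a coefficient of variation of 0.64%, although each of the genes alone varied by 26.4% and 26.9% between these replicates. In *ssh1* the ratio was 7.99, 7.36, and 6.93, higher than in any wild-type replicate. The pair lies on chromosomes 6 and 5 and was chosen for this low variation after the values had been seen, so that no test is given. Whether reads are shared between the 2 loci was not tested.

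LOC_Os09g00999, at rank 11, was a member through 1 sample only and was singled out after the values had been seen. It was listed at 24668 FPKM in *ssh1* replicate 1 and at 0 in the other 5 samples, and no fold change is given for it. Its neighbor by locus number, LOC_Os09g01000, had its lowest value of the 6 samples, 4578 FPKM, in that same replicate. Among all genes, 23 were listed at 0 in some sample and above 100 FPKM in another, and LOC_Os09g00999 was the only member among them. A 0 in such a list can be a failed estimate, which was not tested.

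At the thresholds of the study, a 2-fold change with an adjusted p under 0.001 (here from limma), 3 of the 100 members were upregulated in *ssh1* and 0 were downregulated. Over all 18537 tested genes these thresholds called 5.11%, with 3.19% upregulated and 1.92% downregulated. The study applied them to Cuffdiff results and reported more genes than the 947 called here by limma. A member not called here may therefore have been called there. The upward count of the members was near the share of all tested genes but is not free of their choice. Among the 3, LOC_Os02g44870 and LOC_Os04g53620, described below, were members through *ssh1* alone. At an unadjusted p below 0.05 from limma with the same fold change, 6 members were higher (7.48% of tested genes) and 1 was lower (6.25% of tested genes). At an adjusted p below 0.05 from limma with that fold change, 5 were higher (7.07% of tested genes) and 1 was lower (5.95% of tested genes).

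LOC_Os02g44870, on chromosome 2 and at rank 23, had the largest rise. Its values were 132, 212, and 171 FPKM in the wild type and 2940, 3115, and 2286 FPKM in *ssh1*, far apart and without overlap. The mean was 172 ± 39.7 FPKM in the wild type and 2780 ± 437 FPKM in the mutant (SD, n = 3 each), a 16.2-fold difference, and limma gave 4.02 ± 0.20 (SE) on the log2 scale with an adjusted p of 0.000103. In order of abundance it stood at ranks 438 to 693 in the wild-type samples and at ranks 12 to 18 in the *ssh1* samples. It was thus a member through *ssh1* alone. Its adjusted p exceeded 0.001 without wild-type replicate 1 (log2 fold change 3.85, adjusted p = 0.00109) and without wild-type replicate 3 (4.03, adjusted p = 0.0016), and also without the filter on low values (0.00313).

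LOC_Os04g53620, on chromosome 4 and at rank 83, rose from 269, 249, and 253 FPKM in the wild type to 1018, 1177, and 702 FPKM in *ssh1*. The *ssh1* replicates were again all higher, with the third the lowest of them. The *ssh1* mean was 3.76 times the wild-type mean, and limma gave 1.87 ± 0.19 (SE) on the log2 scale with an adjusted p of 0.000821. It stood at ranks 318 to 368 in the wild-type samples and at ranks 28 to 64 in the *ssh1* samples, and was likewise a member through *ssh1* alone. It lost the adjusted p threshold after rescaling to a common sum (adjusted p = 0.00116 in limma), without the filter on low values (0.0123), and when any replicate other than *ssh1* replicate 3 was left out (0.00131 to 0.00658), while the log2 fold change remained between 1.71 and 2.09 in all 6 of these fits.

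The third upregulated member, at rank 40 and on chromosome 6, had 697, 674, and 618 FPKM in the wild type and 1350, 1455, and 1261 FPKM in *ssh1*. All replicates of *ssh1* were close to each other and above the wild type. Limma gave 1.03 ± 0.09 (SE) on the log2 scale with an adjusted p of 0.000567, just past a 2-fold change. It did not pass both thresholds in any fit that left out a replicate. The same held with the replicate block and without the filter on low values. It is named by its rank because only the largest 2 rises are given by locus ID.

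No member fell at these thresholds. The lowest log2 fold change in limma was that of LOC_Os01g14850 (rank 63, chromosome 1), with 1139, 971, and 1158 FPKM in the wild type and 508, 263, and 437 FPKM in *ssh1*. Its genotypes were well apart, the wild-type mean being 2.70 times the *ssh1* mean, but the *ssh1* replicates varied by 31.2%, and the log2 fold change of -1.48 ± 0.25 (SE) had an adjusted p of 0.00466. LOC_Os01g22490 (rank 84, chromosome 1) was smaller in size and tighter, with 749, 775, and 721 FPKM in the wild type and 466, 473, and 459 FPKM in *ssh1*, for which limma gave -0.68 ± 0.07 (SE) on the log2 scale with an adjusted p of 0.000745. Both were named after their values had been seen. The former missed the adjusted p and the latter the fold change.

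**Figure D4:**
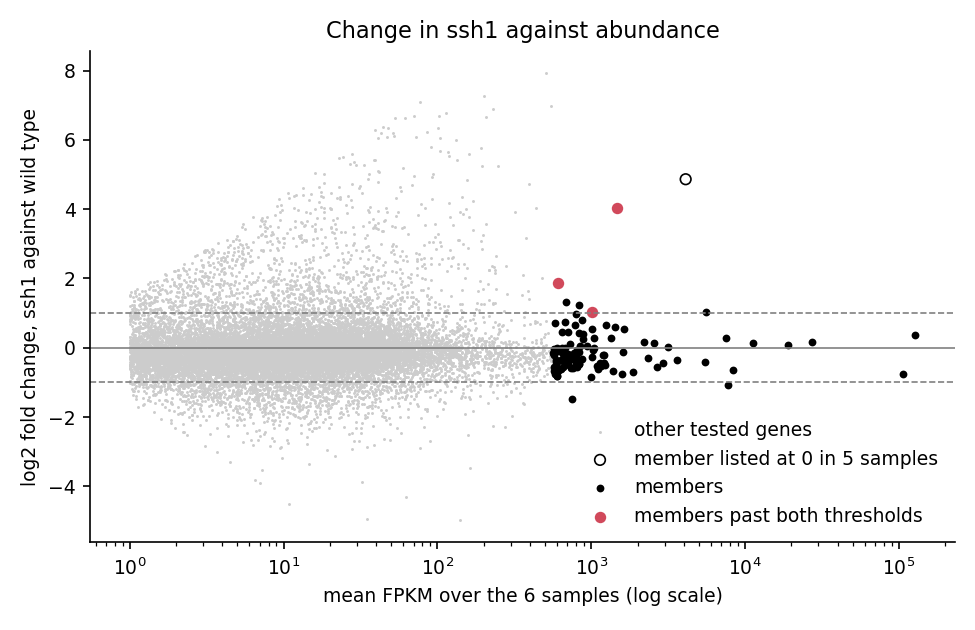
Limma log2 fold change (ssh1 over wild type) of each tested gene, against the mean FPKM over the 6 samples (log scale), with dashed lines at a fold change of 2. Members are black, the 3 members past both thresholds are red, and the open circle is LOC_Os09g00999, whose fitted value is not read as a change; 91 of the 100 members lie within the dashed lines.

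Most members changed by less than a fold change of 2. This held for 91 of the 100 members and for 85.2% of all tested genes. On the log2 scale the median change was -0.19 over the members and -0.14 over all tested genes, and 65 members had a negative value against 61.7% of all tested genes. After median-of-ratios scaling, which brings the median of all tested genes to -0.01, the median of the members was -0.05. Under it 54 members were below 0, against 51.2% of all tested genes. The lower values of the members in *ssh1* are therefore to be read against a shift of all genes in the same direction.

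Small differences were frequent, as in the rest of the data. At an adjusted p below 0.05 from limma with any fold change, 47 members differed, against 45.0% of all tested genes. Of these, 17 were higher in *ssh1* (17.0% of tested genes) and 30 lower (28.0% of tested genes). After median-of-ratios scaling there were 20 higher (21.7% of tested genes) and 20 lower (19.2% of tested genes). Under both scalings the counts of the members were close to the shares of all tested genes. The replicates did not overlap in 65 members, with *ssh1* above in 20 (21.7% of tested genes) and below in 45 (38.0% of tested genes).

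Of the next 100 genes by abundance, 4 were upregulated (3.19% of tested genes) and 0 downregulated (1.92% of tested genes) at the thresholds of the study. Their median log2 fold change was -0.21. Of the 300 genes down to rank 500, 7% were upregulated and 2% downregulated, and of the 500 genes from there to rank 1000, 8.4% and 2.6%. From rank 1001 to rank 5000, 5.15% were upregulated and 2.5% downregulated, and among the tested genes at lower ranks 2.33% and 1.74%. These counts are a description of the bands and were not compared by a test.

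The replicates of *ssh1* varied more than those of the wild type. The median coefficient of variation of the members was 12.7% in *ssh1* against 6.14% in the wild type. The SD on the log2 scale was larger in *ssh1* for 73 members, against 69.3% of all tested genes. On that scale the median SD was 0.09 in the wild type and 0.19 in *ssh1* over the members, and 0.10 and 0.16 over all tested genes. There were 70 members with a coefficient of variation under 10% in the wild type and 41 in *ssh1*, with 37 under 10% in both.

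In *ssh1*, 14 members varied by more than 30% between the replicates, whereas in the wild type 1 member did. In 11 of the 14, replicate 2 had the lowest value of the 3 *ssh1* replicates, and in 9 of the 14 the genotypes overlapped. These 11 include LOC_Os09g00999, a tie, because it was listed at 0 in replicates 2 and 3 alike. Over all 100 members, with that tie again counted for replicate 2, replicate 2 was the lowest of *ssh1* in 47, replicate 3 in 39, and replicate 1 in 14. The same counts were not made over all tested genes. The FPKM sum of all non-members was also lowest in this replicate (474926, against 492540 to 522026 in the other 5 samples). The part of this library in the spread of the members was not tested.

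LOC_Os02g35610 (rank 15, chromosome 2), singled out for its spread after the values had been seen, had 2963, 3242, and 2453 FPKM in the wild type and 2132, 786, and 4504 FPKM in *ssh1*. It shared with LOC_Os04g32710 and LOC_Os04g02670 a low value in replicate 2, and with LOC_Os04g32710 the highest value in replicate 3.

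**Figure D5:**
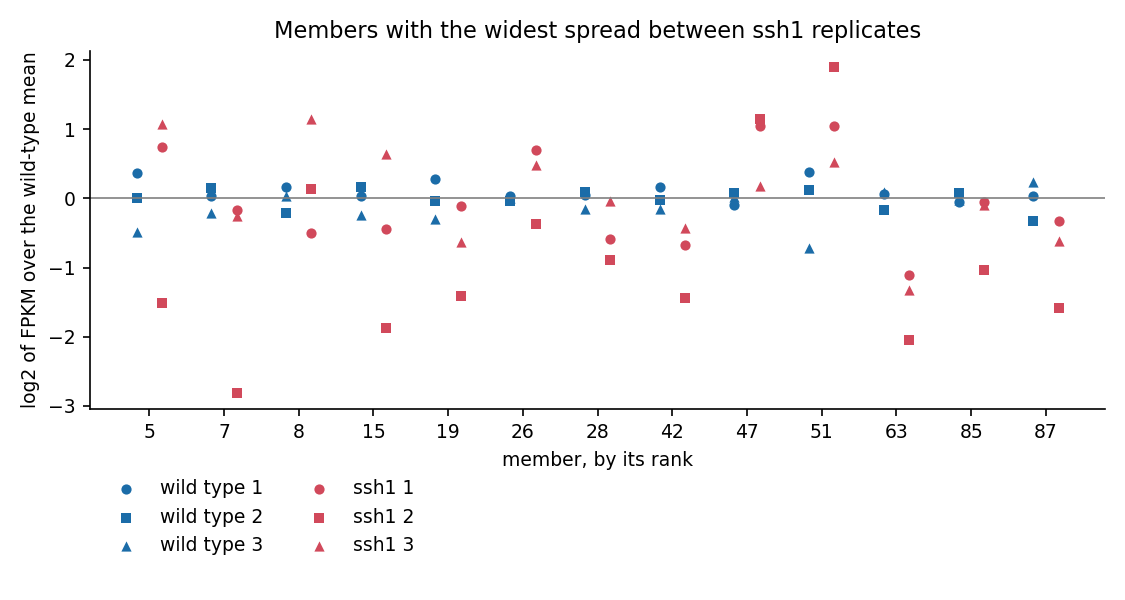
Log2 of the FPKM over the wild-type mean for the 13 members above 0 in all samples that varied by more than 30% between ssh1 replicates, labeled by rank; blue points are wild-type and red points ssh1 replicates (circle, square, and triangle for replicates 1, 2, and 3). The squares of ssh1 replicate 2 are the lowest red points in most members.

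At the other end, LOC_Os11g06390 (rank 93, chromosome 11) varied least over the 6 samples, with a coefficient of variation of 1.83%. It had 590, 583, and 602 FPKM in the wild type and 588, 590, and 570 FPKM in *ssh1* and was chosen after the values had been seen. The genotypes overlapped. Of the 37 members that varied by less than 10% within both genotypes, 27 had no overlap between them, 6 with *ssh1* above and 21 with *ssh1* below. Of the 5629 tested genes within the same limit, 24.3% had *ssh1* above and 46.5% had *ssh1* below.

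A high FPKM need not rest on many fragments. Where fragments are counted whole, the values of a gene in a library are whole multiples of what 1 fragment adds, and genes of the same length share that step. Each member was compared with every gene above 0 in at least 4 libraries for such a step, within the rounding of the 6 printed digits and with up to 100 steps in the other gene. A shared step was found for 15 members, which were named or counted after the values had been seen. The multiples are the smallest possible, so that they are lower limits if a step is 1 fragment. A low multiple therefore does not show that a gene rested on few fragments.

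The second most abundant gene, LOC_Os02g27769, shared a step with LOC_Os04g32710, the fifth, in all 6 libraries. LOC_Os02g27769 stood at 81, 68, and 19 steps in the wild type and at 29, 53, and 55 steps in *ssh1*. LOC_Os04g32710 stood at 7, 5, and 1 steps in the wild type and at 7, 2, and 13 steps in *ssh1*, so that its low value in *ssh1* replicate 2 was 2 steps. A step was 1547 to 2285 FPKM in 5 of the libraries and 6801 FPKM in wild-type replicate 3, where the true number of steps may be a multiple of the smallest. These steps made up 7.01% to 15.3% of the FPKM sum for LOC_Os02g27769. How many fragments they stand for is unknown, and a share of the FPKM sum is not a share of the fragments.

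LOC_Os12g38650 (rank 51, chromosome 12) had 639, 530, and 297 FPKM in the wild type and 1012, 1822, and 703 FPKM in *ssh1*. It shared a step with 2 genes that are not members, in 5 libraries together, and stood at 2 and 3 steps in wild-type replicates 1 and 2 and at 5, 12, and 5 steps in *ssh1*. A step was 320 FPKM in wild-type replicate 1, 177 FPKM in wild-type replicate 2, and 141 to 202 FPKM in *ssh1*. Counts of steps in different libraries are therefore not directly comparable, and no step was found in wild-type replicate 3. The genotypes separated with a log2 fold change of 1.23 (adjusted p = 0.0552 in limma), and the part of the steps in this was not tested.

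The other members with a step stood on more of them in their highest library, although some libraries were low. LOC_Os02g30600 (rank 9) had 193 to 602 steps, LOC_Os02g35610 35 to 221 steps, and LOC_Os07g02340 (rank 50) 31 to 221 steps over the 6 libraries. The 31 steps were in *ssh1* replicate 1, where its partner LOC_Os08g34480, not a member, stood at 10 steps. Against LOC_Os07g04270 (rank 19) that partner stood at 30 steps there, so that 31 is too low if these genes share 1 step. At the other end, LOC_Os07g36140 (rank 86, chromosome 7), with 488 to 801 FPKM, had 599 to 2109 steps, and LOC_Os07g42950 (rank 100) had 2017 to 4839 steps. In 8 of the 15 members every library was under 300 steps, and in 5 every library compared was at 500 or more. For the remaining 85 members this search found no step, and the number of fragments behind them is unknown.

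The members were spread over all 12 chromosomes, from 3 on chromosome 12 to 20 on chromosome 3. Chromosome 3 held 13.9% of the tested genes and 20 members, and chromosome 1 held 14.4% and 10 members. Only 2 pairs of members had adjoining locus numbers, LOC_Os03g08010 with LOC_Os03g08020, and LOC_Os09g00999 with LOC_Os09g01000. The former pair had similar levels, at 540 to 835 and 611 to 744 FPKM over the 6 samples, and was named after the values had been seen. Reads that fit more than 1 locus can be divided between similar genes by the mapping, and values of such neighbors are uncertain to that degree.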

How the data were processed

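RNA was sequenced from young panicles of both genotypes, with 3 biological replicates each. The authors mapped paired-end reads with TopHat2 at default parameters to IRGSP-1.0, and Cuffdiff with the MSU7 gene models gave the FPKM (versions not given in the sources used here). The deposited values are FPKM, without read counts, so that no counting interval is given. Of 55991 rows, 4 repeated locus IDs were removed and 55982 kept.

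The 100 genes with the highest mean FPKM were taken as members. Those 18537 genes that reached a mean of 1 FPKM were tested on log2(FPKM + 1) in limma 3.58.1 (R 4.3.3, lmFit and eBayes with a trend), with a term for genotype and p-values adjusted by Benjamini-Hochberg over all of them. The added 1 FPKM hardly changes the log2 fold change at the level of the members, apart from LOC_Os09g00999, listed at 0 in 5 samples. An adjusted p can move with it, as for LOC_Os02g27769. The calculations were tested on simulated data. Whole-number steps were accepted where the product over libraries of the tolerance windows was below 1e-10. Single shares were compared by an exact permutation test (SciPy 1.17.1).

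The members, the rules, and the thresholds were chosen with earlier results of these data known. Genes named were the 10 highest, ranks 99 to 102, and the 2 largest rises and 2 largest falls past both thresholds (there was no fall), with *SNB* and *OsMADS15* as checks. All others named by locus ID were chosen after their values had been seen. Alternatives were another pseudocount (0.1), other filters and scalings, robust estimation, other thresholds, other lists, a replicate block, and omission of single replicates. Replicate numbers are not stated to pair samples. Functional classes were not made.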

Additional observations from a re-analysis of the deposited data

How the results depend on the processing

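The 3 upregulated members (3.19% of tested genes) became 0 without a filter on low values and 0 to 2 when 1 replicate was left out. With a replicate block they became 0, where 0 of all genes passed. There 6 passed an unadjusted p below 0.05 from limma with the same fold change, for which no share of tested genes is given. At an adjusted p below 0.05 from limma they became 5 (7.07% of tested genes), and with any fold change 17 (17.0% of tested genes). With median-of-ratios scaling in addition, a setting chosen after seeing the data, they became 20 (21.7% of tested genes). In the list of 200 genes they became 7, beside the same 3.19% of tested genes. The calls over all genes fell with them, from 591 upregulated and 356 downregulated to 10 and 3 without a filter and to 58 to 504 and 10 to 250 when 1 replicate was left out. With the block, the adjusted p was 0.00257 for LOC_Os02g44870 and 0.00662 for LOC_Os04g53620. The 0 downregulated members (1.92% of tested genes) became 1 at an adjusted p from limma below 0.05 (5.95% of tested genes) or 0.01 (879 of the 18537 tested genes). At an adjusted p below 0.05 with any fold change they became 30 (28.0% of tested genes), and with median-of-ratios scaling in addition 20 (19.2% of tested genes). The median of -0.19 moved to -0.0478 with median-of-ratios scaling and to -0.0409 in the 50 highest genes, and lay between -0.23 and -0.15 when 1 replicate was left out. Fits that leave out a replicate or use the block have fewer residual degrees of freedom. The difference in the share of the FPKM sum, -0.69 percentage points, was 0.99 without the 2 most abundant genes and -2.24 to 0.53 when 1 replicate was left out. The cause was not tested. All other settings left these counts within 1.5 times and the median within the spread of the *ssh1* replicates (SD 0.09). Lists by median FPKM or by the mean of log2(FPKM + 1) each shared 97 genes with the members. The same-numbered samples did not deviate together (correlations of -0.10, -0.07, and -0.17 over genes).

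Of the named genes, those that changed sign were not called in any fit of the study's thresholds. With quantile normalization the log2 fold change was -0.19 for LOC_Os05g28750, -0.12 for LOC_Os04g32710, and 0.0259 for LOC_Os01g57968, and with median-of-ratios scaling it was 0.0935 for LOC_Os01g57968 and 0.0339 for *OsMADS15*. With 1 replicate left out it was -0.10 to 0.30 for LOC_Os05g28750, -0.34 to 0.95 for LOC_Os04g32710, -0.17 to 0.65 for LOC_Os09g01000, -0.11 to 0.00731 for LOC_Os01g57968, -0.0255 to 0.11 for LOC_Os06g48750, and -0.0380 to 0.0602 for LOC_Os05g34700. The number of fragments is unknown for most members and, from steps in the values, may be below 100 for LOC_Os02g27769, LOC_Os04g32710, and LOC_Os12g38650. In some libraries this holds for LOC_Os02g35610 and LOC_Os07g02340 as well.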
